A study of Homo sapiens with 28 samples.

Results

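The SERPINB cluster on chromosome 18 is a run of neighbouring genes for clade B serpins, the intracellular branch of the serine protease inhibitor superfamily. It was followed here through its 10 genes SERPINB5, SERPINB12, SERPINB13, SERPINB4, SERPINB3, SERPINB11, SERPINB7, SERPINB2, SERPINB10 and SERPINB8, given in their order along the chromosome and chosen by gene symbol from the 23533 genes of the RNA tables. All 10 were found, and all 10 had an adjusted p below 1, read here as tested, in each of the authors' 4 comparisons. The window used for binding sites and histone marks ran from 10 kb before the first to 10 kb after the last of these genes (chr18:61134144-61666608, hg19, 532.465 kb).

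EPC2 is a line of immortalised epithelial cells from the human esophagus. One group received neither agent, and the others IL-13 (100 ng/ml), vitamin D (100 nM) or the 2 combined, all for 6 h. RNA came from 3 samples of each of the 4 groups, and the 16 chromatin samples were single libraries of H3K4me3, H3K9ac and H3K27ac in all 4 groups, of the transcription factor STAT6 in untreated and IL-13 cells, and of the vitamin D receptor VDR in untreated and vitamin D cells. Nothing in the labels states that the 3 RNA samples per group were grown separately, so the p-values may measure technical spread, and the form of vitamin D is not named there.

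Most clade B serpins present a flexible loop as bait to a target protease and trap the enzyme in a covalent complex; a few have lost this activity. Several are abundant in stratified squamous epithelium, where they are thought to protect the cell from its own or foreign proteases. IL-13, a type 2 cytokine of allergic inflammation, acts through STAT6, and vitamin D acts through VDR, a nuclear receptor that binds DNA with a retinoid X receptor partner.

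SERPINB3 and SERPINB4, also known as the squamous cell carcinoma antigens, are near-identical copies that lie next to each other on the minus strand. Their promoters are shown because reads and binding sites at one can be hard to tell from those at the other. Each sequence below holds the 250 bases before the RefSeq start (GRCh38.p14, minus strand, chr18:63661894-63662143 for SERPINB3 and chr18:63644257-63644506 for SERPINB4), with the bases that differ in capitals.
SERPINB3: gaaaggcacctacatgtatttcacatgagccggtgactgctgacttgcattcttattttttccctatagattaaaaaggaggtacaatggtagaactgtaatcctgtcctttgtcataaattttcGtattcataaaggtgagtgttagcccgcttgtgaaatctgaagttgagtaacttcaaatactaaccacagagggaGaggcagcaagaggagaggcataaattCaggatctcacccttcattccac
SERPINB4: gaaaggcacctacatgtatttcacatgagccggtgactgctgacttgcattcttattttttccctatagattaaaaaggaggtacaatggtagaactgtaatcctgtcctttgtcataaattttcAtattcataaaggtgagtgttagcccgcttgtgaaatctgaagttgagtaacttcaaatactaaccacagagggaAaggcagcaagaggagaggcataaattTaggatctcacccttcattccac
The pair differed at 3 of 250 bases (98.8% identical). With positions counted from 1 at the printed 5′ end and the SERPINB3 base first, the differences were G126A, G201A and C228T.

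The RefSeq table held promoters for 8 of the 10 genes, 11 in all. Both strands of the 250 bases were searched for TTCNNNNGAA, the spacing that STAT6 is known to prefer, for the shorter TTCNNNGAA of other STAT factors, and for DR3, the direct repeat bound by VDR. TTCNNNNGAA was found in 0 of the 11 promoters and in 5.38% of all 35116 promoters in the table. TTCNNNGAA was found in 3 of the 11, at SERPINB12, SERPINB7 and SERPINB8, and in 6.57% of all promoters. DR3 was found in 0 of the 11 and in 0.0655% of all. These are letter matches in a short window and say nothing of sites elsewhere.

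The RNA values are the authors' RPKM, a read density scaled to transcript length and library size, with 1 value per group and no spread. A change was called at an adjusted p of 0.05 or less. Fold changes are on the log2 scale as deposited, and a standard error was worked out for each one from its p. These are bulk cells, so fewer cells of a type and less RNA per cell cannot be told apart.

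With IL-13, 5 of the 10 genes rose (SERPINB13, SERPINB4, SERPINB3, SERPINB7 and SERPINB2) and 2 fell (SERPINB5 and SERPINB8) in the authors' deposited table, in which 12.3% of the genes tested were called higher and 14% lower. With vitamin D, 9 of the 10 fell and none rose in the authors' deposited table, where 15.1% of genes were called lower and 17.5% higher. SERPINB7 was the exception, and its log2 change was also below 0. The median log2 change of the 10 genes was 0.06 with IL-13 and -0.73 with vitamin D, beside medians of 0.0027 and -0.0031 over all genes tested.

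The summed level of the cluster was highest with IL-13 and lowest with vitamin D. The 10 genes together made 968 RPKM in untreated cells, 1477 with IL-13, 673 under vitamin D and 961 under both. As a share of all RPKM this was 0.249%, 0.385%, 0.172% and 0.255%. SERPINB2, SERPINB5 and SERPINB7 carried 80.0% of it in untreated cells and 57.3% with IL-13, when SERPINB3 and SERPINB4 took more.

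**Figure D1:**
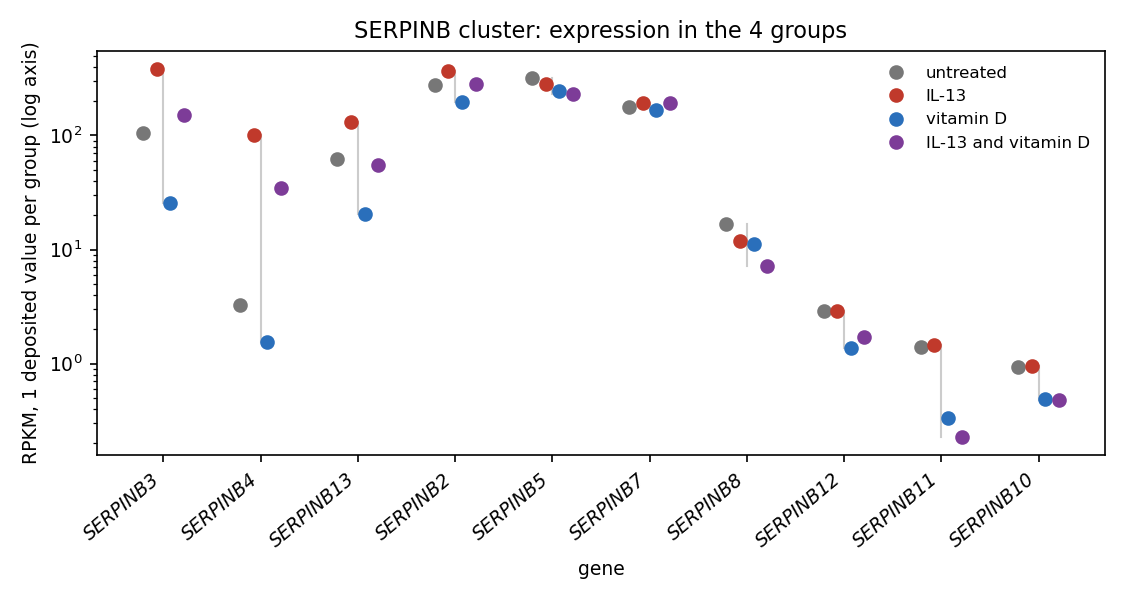
RPKM of each cluster gene (log axis) in the 4 groups, 1 point per deposited group value, with a grey line from the lowest to the highest. For SERPINB3, SERPINB4, SERPINB13, SERPINB2, SERPINB7 and SERPINB12 the vitamin D point is the lowest and the IL-13 point the highest. For SERPINB12 the untreated and IL-13 points nearly coincide (2.87 and 2.88 RPKM), and it was not called with IL-13. SERPINB7 was not called with vitamin D. SERPINB8 is lowest with both agents, at 7.22 RPKM.

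SERPINB3, an inhibitor of papain-like cysteine proteases such as cathepsins L and S (chr18:61322431-61329197, hg19), was at 106 RPKM in untreated cells, 381 with IL-13, 25.6 under vitamin D and 152 under both. Each step in the order vitamin D, untreated, both, IL-13 was called. In the authors' deposited table it rose by 1.82 with IL-13 and changed by -1.97 with vitamin D, with adjusted p listed as 0 for each. With both agents it was 0.53 higher than untreated in the authors' deposited table (adjusted p = 1.93e-26).

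SERPINB4, which is known to inhibit the serine proteases cathepsin G and mast cell chymase (chr18:61304493-61311502, hg19), was at 3.28 RPKM untreated, 100 with IL-13, 1.56 under vitamin D and 34.7 under both. It had the same order of groups as its neighbour over a wider range. The authors' deposited table gives a rise of 4.81 with IL-13 (adjusted p listed as 0) and a change of -0.92 with vitamin D (adjusted p = 1.23e-11). With both agents it stood 3.36 above untreated in the authors' deposited table.

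Because the copies can share reads, their separate values are uncertain and they were also summed. The sum was 108.9 RPKM in untreated cells and 481.4 after IL-13, 27.2 after vitamin D and 186.9 after both. It was thus 4.42-fold higher with IL-13 and 4.01-fold lower with vitamin D than untreated, and 2.58-fold lower with both than with IL-13. SERPINB4 made up 3.01% of the sum in untreated cells, 20.8% with IL-13, 5.73% under vitamin D and 18.5% under both. Its share was therefore high in the groups that received IL-13 and low in the groups that did not.

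SERPINB13, an inhibitor of cathepsins K and L (chr18:61254534-61266433, hg19), was at 62.2 RPKM untreated, 132 with IL-13, 20.7 under vitamin D and 55.5 under both. In the authors' deposited table it rose by 1.05 with IL-13 (adjusted p = 8.87e-110) and changed by -1.52 with vitamin D (adjusted p = 2.21e-283). With both agents it was close to untreated, at -0.16 in the authors' deposited table (adjusted p = 0.0152).

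SERPINB2, the intracellular inhibitor of urokinase and tissue plasminogen activator (chr18:61554939-61571124, hg19), was at 279 RPKM untreated, 368 with IL-13, 196 under vitamin D and 284 under both. The authors' deposited table has it 0.38 higher with IL-13 (adjusted p = 1.11e-31) and at -0.45 with vitamin D (adjusted p = 1.69e-52). The untreated level and the level with both, neighbours in the order, did not pass the test in the authors' deposited table (0.03, adjusted p = 0.595).

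SERPINB5, or maspin, a serpin without protease inhibition that is studied as a tumour suppressor (chr18:61144144-61172318, hg19), was at 318 RPKM untreated, 283 with IL-13, 247 under vitamin D and 232 under both. It fell with each agent, by 0.18 with IL-13 and by 0.31 with vitamin D in the authors' deposited tables. With both it was at -0.44 against untreated in the authors' deposited table (adjusted p = 4.33e-23).

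SERPINB8, an inhibitor of the proprotein convertase furin (chr18:61637263-61656608, hg19), was at 16.9 RPKM untreated, 11.9 with IL-13, 11.2 under vitamin D and 7.22 under both. It fell by 0.51 with IL-13 and by 0.54 with vitamin D in the authors' deposited tables. With both it fell by 1.21 in the authors' deposited table (adjusted p = 1.12e-109). The level with IL-13 and that with vitamin D were not compared in a test.

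SERPINB7, or megsin, whose loss causes a palmoplantar keratosis (chr18:61445011-61472610, hg19), had the narrowest range of the abundant genes, at 178 RPKM untreated, 194 with IL-13, 169 under vitamin D and 193 under both. Its rise with IL-13 was 0.10 (adjusted p = 0.0129) in the authors' deposited table. Vitamin D gave -0.02 (adjusted p = 0.694) in the authors' deposited table, which did not pass.

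The remaining genes were low. SERPINB12, an inhibitor of trypsin-like proteases (chr18:61223393-61234244, hg19), was at 2.87 RPKM untreated, 2.88 with IL-13, 1.37 under vitamin D and 1.73 under both. SERPINB11 (chr18:61370194-61391122, hg19) was at 1.40, 1.44, 0.334 and 0.228 RPKM in the same order of groups. SERPINB10, best known from blood cells (chr18:61582745-61602476, hg19), was at 0.937, 0.961, 0.493 and 0.479 RPKM. None of these 3 was called with IL-13, and each was lower with vitamin D in the authors' deposited tables, at -0.86 for SERPINB12, -1.56 for SERPINB11 and -0.61 for SERPINB10. At such levels few reads lie behind a value, and the log2 ratio of SERPINB11's RPKM with both against untreated was -2.20 with a pseudocount of 0.1 and -0.97 with a pseudocount of 1.

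The design crosses the agents, so each effect was also read in the presence of the other. Vitamin D against the combination was deposited and shares no library with IL-13 against untreated. In the authors' deposited table the combination was above vitamin D alone for 5 genes and below it for 2 (all genes, 16.4% higher and 16.9% lower). These were the same 7 genes, each in the direction it had with IL-13 alone. The combination against IL-13 was derived from the 2 tables against untreated, in which the untreated value cancels, and tested with a z test. It was lower for 9 genes and higher for none (all genes, 11.9% lower and 12.3% higher, z test with Benjamini-Hochberg adjustment). SERPINB7 was again the gene not called (0.01, adjusted p = 0.898 by the z test on the authors' deposited values). The combination against untreated was called higher for SERPINB4, SERPINB3 and SERPINB7 and lower for 6 genes, against 16% and 15.7% of all genes in the authors' deposited table. SERPINB2 alone was not called there.

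On top of IL-13, vitamin D changed SERPINB3 by -1.29 ± 0.064 (derived SE), SERPINB4 by -1.46 ± 0.12 and SERPINB13 by -1.21 ± 0.063. The errors of SERPINB3 and SERPINB4 rest in part on p-values listed as 0 and are approximate. SERPINB2 changed by -0.35 ± 0.040 and SERPINB5 by -0.26 ± 0.047. SERPINB8 changed by -0.70 ± 0.060. The low genes SERPINB12, SERPINB10 and SERPINB11 changed by -0.66 ± 0.15, -0.78 ± 0.20 and -2.13 ± 0.19. The adjusted p of these 9 by the z test ran up to 0.000906, that of SERPINB10. Among the members, the deposited changes disagreed most for SERPINB11. Its change with both against vitamin D was -0.33 as deposited and -0.55 when worked out from the changes against untreated.

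The size of the IL-13 effect with and without vitamin D was then compared directly, from tables that share no library. SERPINB3 rose by 1.82 with IL-13 alone and by 2.50 on top of vitamin D in the authors' deposited tables. The difference of 0.68 ± 0.083 (derived SE) had an adjusted p of 3.37e-13 by the z test. SERPINB13 went from 1.05 to 1.36 in the authors' deposited tables, a difference of 0.31 ± 0.076 (adjusted p = 0.00413 by the z test). SERPINB4 went the other way, from 4.81 to 4.26 in the authors' deposited tables, a difference of -0.55. No call is made for it, because both of its p-values are listed as 0 and its derived SE is only an upper bound. With 1e-300 in their place, that bound was 0.17 and the adjusted p by the z test on the authors' deposited values was 0.0560. With 1e-320, a value chosen after seeing the data, they were 0.17 and 0.0431. The SE of SERPINB3 is likewise an upper bound. SERPINB2 and SERPINB8, with differences of 0.11 ± 0.050 and -0.15 ± 0.074, did not pass. Over all 14734 genes tested, 1.41% were called with a higher and 1.01% with a lower IL-13 effect. The IL-13 effect was thus called different with vitamin D for SERPINB3 and SERPINB13, and in each it was larger on the log2 scale while the level reached was lower. In the z test on the authors' deposited values, the call for SERPINB13 was lost with Holm's adjustment (adjusted p = 0.782), whereas that for SERPINB3 was not (adjusted p = 6.05e-12).

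**Figure D2:**
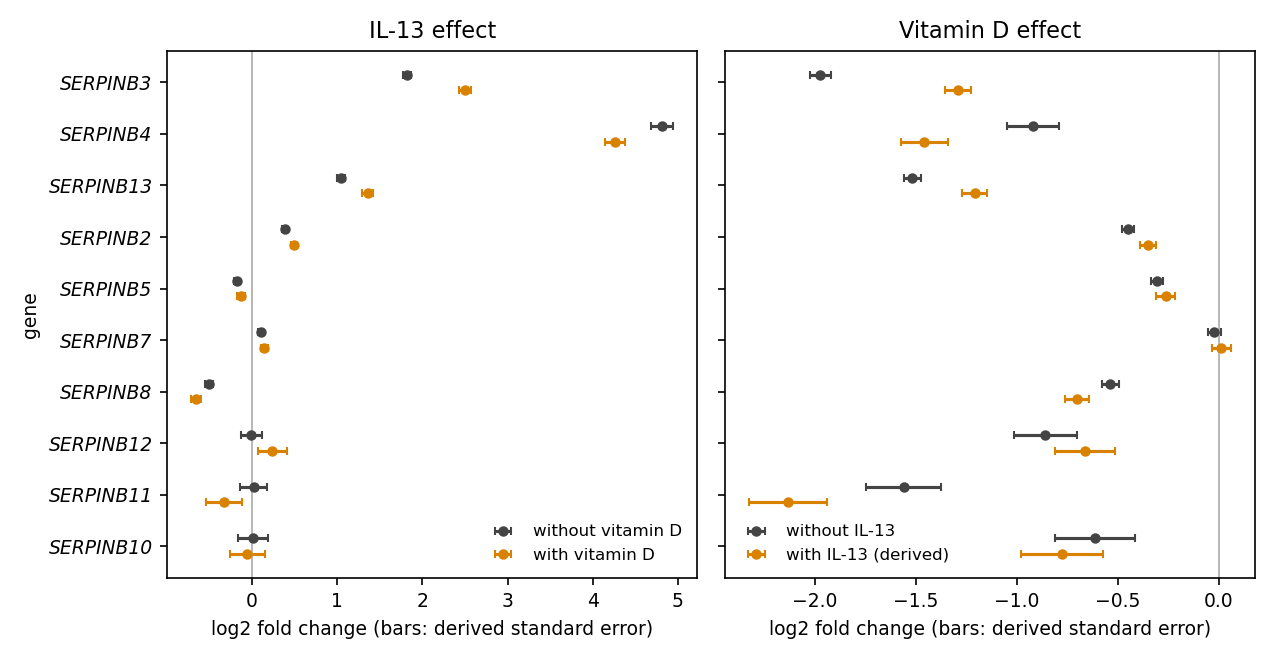
Log2 fold change of each cluster gene for IL-13 (left, without and with vitamin D) and for vitamin D (right, without and with IL-13, the last derived), with bars of 1 derived standard error (upper bounds or approximate for SERPINB3 and SERPINB4, where p is listed as 0). SERPINB4 shows the largest IL-13 effect, at 4.81 and 4.26, and in the right panel SERPINB7 lies at -0.02 and 0.01 and the other genes below 0.

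By a rule of distance over the 3 deposited changes against untreated, the genes most like SERPINB3 among 11507 were KITLG (distance 0.59), LRAT (1.02) and PPARGC1B (1.12). For SERPINB4 they were RASGRP1 (1.67), FAM26E (1.76) and TNC (2.15), each with a smaller IL-13 change than SERPINB4 in the authors' deposited table. The distances are in log2 units, and the 3 changes share the untreated samples.

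Around the cluster, VPS4B was at 39.2 to 45.0 RPKM and KDSR at 7.71 to 8.70 RPKM over the groups, and HMSD, which lies between SERPINB10 and SERPINB8, at 0.468 to 0.680 RPKM. In the authors' deposited tables, VPS4B was called higher with both, against untreated (0.20) and against vitamin D (0.15). KDSR was called only with vitamin D, where it was lower (-0.12). HMSD was called in none of them. BCL2 was called higher in each of the authors' deposited tables at a level of at most 0.320 RPKM.

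The clade B serpins of chromosome 6 had another pattern with vitamin D. SERPINB1, an inhibitor of neutrophil proteases, was at 64.0 RPKM untreated, 34.3 with IL-13, 407 under vitamin D and 207 under both. SERPINB9, the granzyme B inhibitor, was at 2.29, 1.15, 5.85 and 3.47 RPKM, and SERPINB6 at 38.7, 67.7, 47.8 and 72.4 RPKM. All 3 rose with vitamin D, while 1 rose (SERPINB6) and 2 fell with IL-13, in the authors' deposited tables. Over all genes tested, 17.5% were called higher with vitamin D, and 12.3% higher and 14% lower with IL-13.

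Among 15 proteases and receptors listed as possible targets or partners of cluster serpins, the IL-13 comparison tested 12. Whether a cluster serpin acts on any of them was not tested. Of those, 7 were lower and 1 was higher in the authors' deposited table, in which 14% of all genes tested were lower and 12.3% higher. The largest changes were in PLAT, the tissue plasminogen activator gene, at -0.57, in the kallikreins KLK7 at 0.49 and KLK5 at -0.37, and in PLAUR, the urokinase receptor gene, at -0.35 in the authors' deposited table. With vitamin D, 7 of 12 rose and 2 fell, led by PLAT at 1.11, KLK5 at 0.68, KLK7 at 0.65 and KLK8 at 0.33 in the authors' deposited table (all genes, 17.5% higher and 15.1% lower). For the combination against untreated, 2 were higher and 2 lower of 13 in the authors' deposited table (all genes, 16% and 15.7%). Against vitamin D, 1 was higher and 7 were lower of 12 in the authors' deposited table (all genes, 16.4% and 16.9%). Against IL-13, by the z test, 7 were higher and 2 lower of 12 (all genes, 12.3% and 11.9%). PLAT was at most 1.46 RPKM. KLK7 rose with each agent, from 140 RPKM to 199 with IL-13, 211 under vitamin D and 355 under both.

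Markers of the labelled cell type were high, with KRT5, KRT14 and KRT6A leading a squamous sum of 31452 to 36160 RPKM over 8 genes; 7 of the 8 were at 1 RPKM or more, EPCAM being the other. Leukocyte markers summed to at most 0.0609 RPKM over 6 genes, with MS4A1 at 0 in all groups. Eosinophil and mast cell markers summed to at most 0.171 RPKM over 5 genes, with CLC, TPSAB1 and CPA3 at 0 in all groups. Fibroblast markers summed to 15.4 RPKM untreated, 10.2 with IL-13, 9.83 under vitamin D and 6.04 under both over 7 genes, nearly all of it COL1A1 (5.84 to 15.2 RPKM). Endothelial markers summed to 0.534, 2.10, 1.25 and 3.90 RPKM over 5 genes, mostly VWF, with PECAM1 at or below 0.00217. The part of these markers in the serpin results was not tested.

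STAT6 regions lay in the cluster with IL-13 and not without it. The IL-13 list had 6 in the window and the untreated list none, and over the whole list 81% of IL-13 regions had no overlapping region in the untreated list. Each result on regions comes from 1 library per condition and has no test, and fold enrichments are the authors' own values. The lists differ in size, with 4802 STAT6 regions with IL-13 and 1126 without.

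The strongest STAT6 region in the cluster was between SERPINB11 and SERPINB7 (chr18:61397860-61398958, hg19, fold enrichment 12.4). It ranked 314 of 4802 by q in its list, with its summit 22.1 kb before the nearest start of SERPINB7. H3K27ac was called there in untreated cells, with IL-13 and with both, but not with vitamin D alone. H3K9ac was called there in the 2 libraries with IL-13 and in neither of the others.

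SERPINB4 and SERPINB3 each had a STAT6 region in an intron, at nearly the same distance from the start. The region in SERPINB4 (chr18:61308337-61308612, fold 4.20) had its summit 3.06 kb after the start, and that in SERPINB3 (chr18:61325966-61326249, fold 3.95) 3.16 kb after it. Both were weak, with 65.3% and 74.3% of the list at a higher q. The near-identity of the copies means that reads could be placed at either. At each of them H3K27ac was called with IL-13 and with both, and not in untreated or vitamin D cells.

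SERPINB2 had 2 STAT6 regions. One lay 4.61 kb before its start (chr18:61549777-61550655, fold 7.17) and one at the start itself (chr18:61554788-61555001, fold 3.21), the latter among the weakest of the list, with 96.3% at a higher q. The sixth, in an intron of SERPINB7 (chr18:61455795-61456173, fold 4.70), had H3K27ac in all 4 groups, as had those of SERPINB2. The promoter of SERPINB2 is shown because it was the only cluster promoter at which STAT6 was called within 1 kb of the start. The sequence is the 250 bases before the RefSeq start (GRCh38.p14, plus strand, chr18:63887455-63887704); it held none of the motifs searched, and so has no capitals.
SERPINB2: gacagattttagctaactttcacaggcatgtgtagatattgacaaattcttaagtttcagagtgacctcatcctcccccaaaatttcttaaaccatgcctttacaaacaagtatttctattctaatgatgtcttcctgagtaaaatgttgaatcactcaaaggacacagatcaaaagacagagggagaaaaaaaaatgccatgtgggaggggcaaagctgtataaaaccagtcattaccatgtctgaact
Coordinates of regions are in hg19 and those of printed sequences in GRCh38.p14, and neither was converted.

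The vitamin D list held 3 VDR regions in the cluster and the untreated list none, beside 83% of the 9224 regions of the whole list without an overlapping untreated region. They lay 5.86 kb before the start of SERPINB5 (chr18:61138002-61138547, fold 10.5), 0.714 kb before that of SERPINB13 (chr18:61253759-61254075, fold 4.33) and 1.63 kb before that of SERPINB2 (chr18:61553256-61553406, fold 5.51). The one at SERPINB13 was near the bottom of its list, with 94.9% at a higher q. None overlapped a STAT6 region, and H3K27ac was called at each in all 4 groups. No VDR region was called at SERPINB3 or SERPINB4. At SERPINB11, no region of any mark was called over the gene or the 10 kb before it. This gene had the largest fall on top of IL-13, but at a low level (1.44 RPKM with IL-13 and 0.228 with both).

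**Figure D3:**
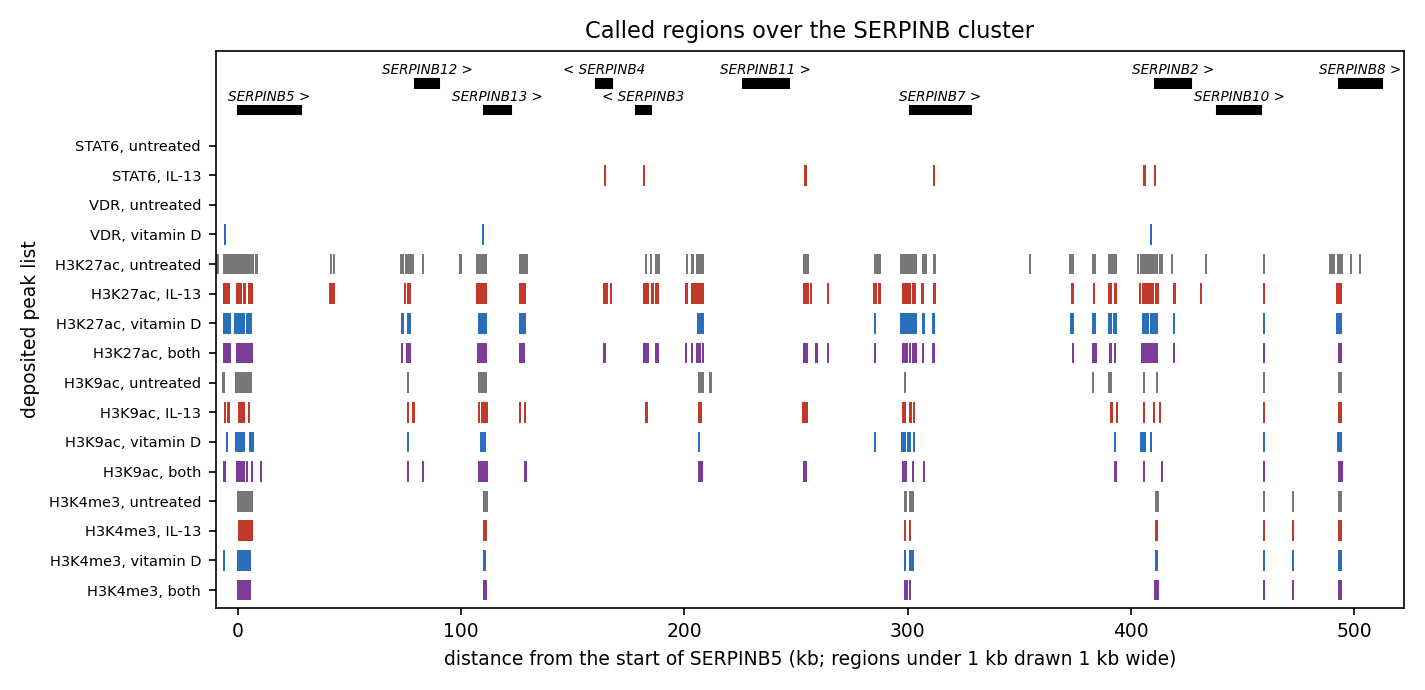
Regions called in each of the 16 chromatin libraries over the cluster, by distance in kb from the start of SERPINB5, with genes as black bars and arrows for strand. The 6 STAT6 regions and the 3 VDR regions appear in the treated rows and not in the untreated rows. Of the 70 joined H3K27ac regions, 17 are called in all 4 groups (24.3%, beside 33.5% of 100553 over the genome).

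H3K27ac, a mark of active promoters and enhancers, had 59 regions in the window in untreated cells, 70 with IL-13, 44 under vitamin D and 54 under both. They covered 66.7, 50.4, 40.5 and 45.3 kb. The untreated list was the longest overall (91881 regions, against 67183 to 72629), so counts and covered lengths do not compare directly. Among regions with a -log10 q of 10 or more the counts were 16, 15, 15 and 14, and after joining regions within 1 kb of each other they were 33, 28, 18 and 27. Of the 70 IL-13 regions, 15 had no overlapping untreated region, 21.4% beside 7.8% over the list. With vitamin D it was 1 of 44 (2.27% beside 6.91%), and with both 10 of 54 (18.5% beside 10%). Joined over the 4 libraries, 4 of 70 H3K27ac regions in the cluster were called in the 2 IL-13 libraries alone (5.71%, beside 0.664% of 100553), and 6 of 70 in every library but vitamin D alone (8.57%, beside 2.51%). Of the 4 in the IL-13 libraries alone, all but chr18:61408394-61408671 (hg19) lay over SERPINB4 and SERPINB3, where reads could be placed at either. Those over the 2 genes are counted again in the stretch described next. H3K9ac, another acetylation mark of active chromatin, had 27, 38, 27 and 35 regions in the same order of groups. Of these, 21 of the 38 with IL-13 had no overlapping untreated region (55.3% beside 34.1% over the list), 13 of 27 with vitamin D (48.1% beside 37.1%) and 17 of 35 with both (48.6% beside 35.7%). In the 2 IL-13 libraries alone, 5 of 61 joined H3K9ac regions were called (8.20%, beside 2.15% of 75420).

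The stretch from 10 kb before to 10 kb after SERPINB4 and SERPINB3 (chr18:61294493-61339197, hg19, 44.7 kb), picked after its values were seen, held 4 H3K27ac regions in untreated cells, 11 with IL-13, none under vitamin D and 8 under both. Over SERPINB4 itself there were 0, 4, 0 and 2 in the same order of groups, and over SERPINB3 there were 2, 3, 0 and 4. The covered length was 1027, 5416, 0 and 3202 bases. All of them over these genes or the 10 kb before them were of modest height, with fold enrichments of at most 7.94. By count in the stretch and by covered length, the groups fell in the order of the summed RPKM of the 2 genes. That order ran from vitamin D through untreated and both to IL-13. It did not hold over SERPINB3 itself, where the count was higher with both than with IL-13. Over SERPINB4 the counts untreated and with vitamin D were equal. H3K9ac had 1 region in the stretch, with IL-13.

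**Figure D4:**
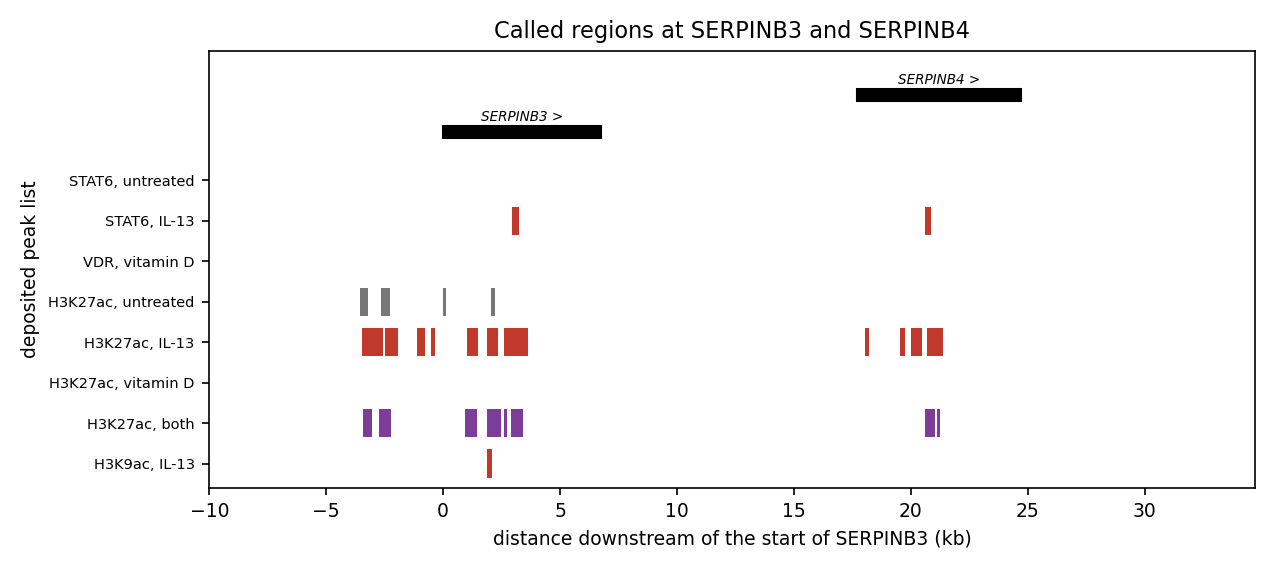
Regions called around SERPINB3 and SERPINB4, by distance in kb downstream of the SERPINB3 start, for STAT6, VDR with vitamin D, H3K27ac in the 4 groups and H3K9ac with IL-13. STAT6 and H3K27ac regions stand together about 3 kb into each gene in cells given IL-13, and the H3K27ac row of vitamin D is empty.

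H3K4me3, the mark of active promoters, was called within 1 kb of the start of 5 genes in all 4 groups (SERPINB5, SERPINB13, SERPINB7, SERPINB2 and SERPINB8) and of none of the other 5. The window held 12 H3K4me3 regions untreated, 9 with IL-13, 11 under vitamin D and 9 under both, of which 0 of 9, 1 of 11 and 1 of 9 had no overlapping untreated region (5.83%, 10.3% and 10.3% over the lists). SERPINB3 had none in any group although it reached 381 RPKM, and neither it nor SERPINB4 had an H3K4me3 region anywhere in the 44.7 kb stretch. Of the 469 genes at 100 RPKM or more in untreated cells, 452 (96.4%) had an H3K4me3 region within 1 kb of a start and 17 had none. H3K27ac was called within 1 kb of the SERPINB3 start in untreated, IL-13 and combination cells. These regions were chr18:61329075-61329217 untreated (hg19, fold 4.17) and chr18:61327754-61328244 with both (fold 4.47). With IL-13 they were chr18:61329560-61329737 (fold 4.63) and chr18:61329991-61330310 (fold 5.95). Only the region with both overlapped one from another group. That was the IL-13 region chr18:61327693-61328177 (fold 4.63), which ended more than 1 kb from the start. Within 1 kb of the SERPINB4 start, H3K27ac was called with IL-13 only. With promoters 98.8% identical, some reads fit either copy; how these were placed was not stated, and their part in these calls was not tested.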

How the data were processed

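RNA was measured in 12 samples and chromatin in 16. The submitters' processing notes list STAR, Bowtie, Trim Galore, SAMtools and MACS2, with GRCh37 and hg19 as builds; no version or setting, and no test behind the RNA p-values, is given in the sources used here. The authors deposited 4 RNA tables of 23533 genes with 1 RPKM per group, log2 fold changes, p-values and adjusted p-values, per the file headers; an adjusted p of 1 was read as not tested. RPKM does not give depth, so counting precision is unknown. The table whose name compares the combination with IL-13 in fact compares it with vitamin D alone: its first RPKM column equals the vitamin D values for 23533 of 23533 genes. It was used as such.

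Standard errors were derived as the absolute log2 change over the normal quantile of p (1e-300 where p is listed as 0, which makes the error an upper bound). The combination against IL-13, and the difference of IL-13 effects, were z tests with Benjamini-Hochberg adjustment over 14734 genes; 11 genes whose tables disagreed by more than 0.5 were left out. The procedure was tested on simulated data, in which the tables agreed exactly and a gene had the same variance in every group. The simulation therefore does not cover tables that disagree or p-values listed as 0.

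Each chromatin library has 1 peak list, with the authors' pileup signal, fold enrichment ratio and -log10 p and -log10 q values, per the file headers. Summits with the same start and end were merged, mitochondrial rows were left out, and regions sharing 1 base or more counted as overlapping. Promoters are RefSeq's (GRCh38.p14). Named genes were all members, 4 neighbours and fixed lists, plus the 3 genes nearest to SERPINB3 and SERPINB4; the examples of the protease list were the 4 largest called changes. Members and lists were chosen with earlier results of these data known. Python 3.11.15, numpy 2.4.6, pandas 2.3.3, scipy 1.17.1 and matplotlib 3.10.9 were used.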

Additional observations from a re-analysis of the deposited data

Results flagged for a closer look

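The IL-13 effect differed with and without vitamin D, by a z test of the difference itself, for 2 cluster genes. For SERPINB3 the difference was 0.68 on the log2 scale (SE 0.083, adjusted p = 3.37e-13 by the z test on the authors' deposited values), and for SERPINB13 it was 0.31 (SE 0.076, adjusted p = 0.00413 by the z test). The standard error of SERPINB3 is an upper bound, since its p-values are listed as 0. The standard errors come from deposited fold changes and p-values and could not be checked against the spread between samples.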

How the results depend on the processing

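No paired analysis was possible because the RNA tables hold 1 value per group and each chromatin condition is 1 library; for the same reason no sample could be left out in turn. Of 160 member changes recomputed with other pseudocounts, scaling or centring, 148 moved by less than 2 derived standard errors, 12 by more, and 0 of those called turned; for 24 of the 160 p is listed as 0, so that the standard error is an upper bound, and 21 of these are among the 148. The summed SERPINB3 and SERPINB4 has no standard error; it kept its direction and moved by at most 0.057 on the log2 scale under a pseudocount of 1 and under scaling to an equal sum over all genes. Asking for a change of at least 1 on the log2 scale left 3 called genes in each of the 4 deposited comparisons, in place of 7 with IL-13, 9 with vitamin D, 9 with both against untreated and 7 with both against vitamin D. Replacing a p listed as 0 by 1e-320 in place of 1e-300, chosen after seeing the data, called 3 genes in place of 2 for the difference of IL-13 effects, SERPINB4 being added, and 9 as before for the combination against IL-13. The planned use of the 3 tables against untreated, with variances summed, called 2 as before for that difference, without SERPINB4. Holm's adjustment left 1 gene, in place of 2, with a called difference of IL-13 effects, and 7 in place of 9 for the combination against IL-13.

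Counts of regions depended on the calling. With a -log10 q of 10 or more, the counts untreated, with IL-13, vitamin D and both were 16, 15, 15 and 14 for H3K27ac and 1, 1, 0 and 0 for H3K9ac, while H3K4me3 had 6, 5 and 7 in the first 3; thus the higher H3K27ac count with IL-13 was not seen among the strong regions. That threshold left 2 STAT6 regions with IL-13 and 1 VDR region with vitamin D. Merging regions within 1 kb gave 33, 28, 18 and 27 for H3K27ac and 14, 21, 16 and 18 for H3K9ac. Widening the window to 100 kb on each side gave 45 H3K9ac regions untreated and 43 with vitamin D, and 1 VDR region in untreated cells. Counting regions as shared only at an overlap of 50% of the shorter region gave 3 H3K27ac regions with vitamin D and not without, in place of 1.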
